A study of Rattus norvegicus with 19 samples.

Results

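The antioxidant defence genes examined here were Sod1, Sod2, Cat, Nfe2l2, Hmox1 and Nqo1, 6 of the 30560 genes in the count table. They were taken by their Ensembl identifiers (ENSRNOG00000002115, ENSRNOG00000019048, ENSRNOG00000008364, ENSRNOG00000001548, ENSRNOG00000014117 and ENSRNOG00000012772, in that order), with the requirement of a mean of at least 5 counts, and all 6 met it. The symbols come with this list of identifiers, since the table itself holds identifiers alone. Their expression was read in the paraventricular nucleus (PVN) of the hypothalamus, a centre that controls sympathetic outflow and the release of vasopressin and oxytocin.

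Cells produce superoxide as a by-product of respiration and through dedicated oxidases, and superoxide dismutases convert it to hydrogen peroxide. Sod1 encodes the copper and zinc enzyme of the cytosol, and Sod2 the manganese enzyme of mitochondria. Catalase, encoded by Cat, breaks hydrogen peroxide down to water and oxygen in peroxisomes. Nfe2l2 encodes Nrf2, the transcription factor that is held in the cytosol by Keap1 and, when released by oxidants or electrophiles, binds antioxidant response elements. Hmox1, the inducible heme oxygenase that degrades heme to biliverdin, iron and carbon monoxide, and Nqo1, which reduces quinones, are classical targets of Nrf2. Much of the activity of Nrf2 is set by the stability of the protein, which a transcript level does not measure.

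The 4 groups were Wistar males (n = 4), SHR males (n = 5), Wistar females (n = 5), and also 5 females of the SHR. The spontaneously hypertensive rat (SHR) is an inbred strain that becomes hypertensive without treatment, and Wistar rats were its normotensive controls, so a difference between them holds every genetic difference between the strains as well as blood pressure, and the parts cannot be told apart. All rats were 14 weeks old, had carried an implanted pressure transmitter, and gave bilateral PVN punches, and pressure was recorded from the females in dioestrus. In such bulk tissue, fewer cells of a type and less RNA per cell cannot be told apart.

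Library totals lay between 44943945 and 58793511 counts. The lowest and highest raw counts in a library were 12714 and 17631 for Sod1, 16205 and 20881 for Sod2, 3592 and 5681 for Cat, 1401 and 2050 for Nfe2l2, 336 and 650 for Hmox1, and 836 and 1359 for Nqo1. Counting error at the lowest count was therefore 0.786% for Sod2 and 5.46% for Hmox1, or 7.72% for Hmox1 if each pair entered as 2 counts. Levels are given as CPM, the counts of a gene for every 1000000 counts of the library size scaled by TMM, and they are compared within a gene only, because transcript lengths were not used. The scaling factors ran from 0.927 to 1.08.

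Hmox1 was the member that separated the strains. Its level was above that of every Wistar library in 10 of 10 SHR libraries, which held for 0.688% of 17432 genes. The gap was narrow: the highest Wistar library had 8.55 CPM and the lowest, SHR female replicate 5, 8.77 CPM. The counting error at the lowest count was 5.46%. Hmox1 was 1.41-fold higher in SHR males, and it passed the test in males and over both sexes. All SHR females also lay above all Wistar females, as in 2.26% of genes. The 1.30-fold higher mean in SHR females still missed the threshold (adjusted p = 0.0584, edgeR). Sod1 was 1.19-fold higher in SHR males, with a call that several alternatives ended. In the tests as designed the other 4 members were not called in any strain comparison, although Sod2 passed in females with the replicate number as a covariate, and none of the 6 was called between the sexes.

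**Figure D1:**
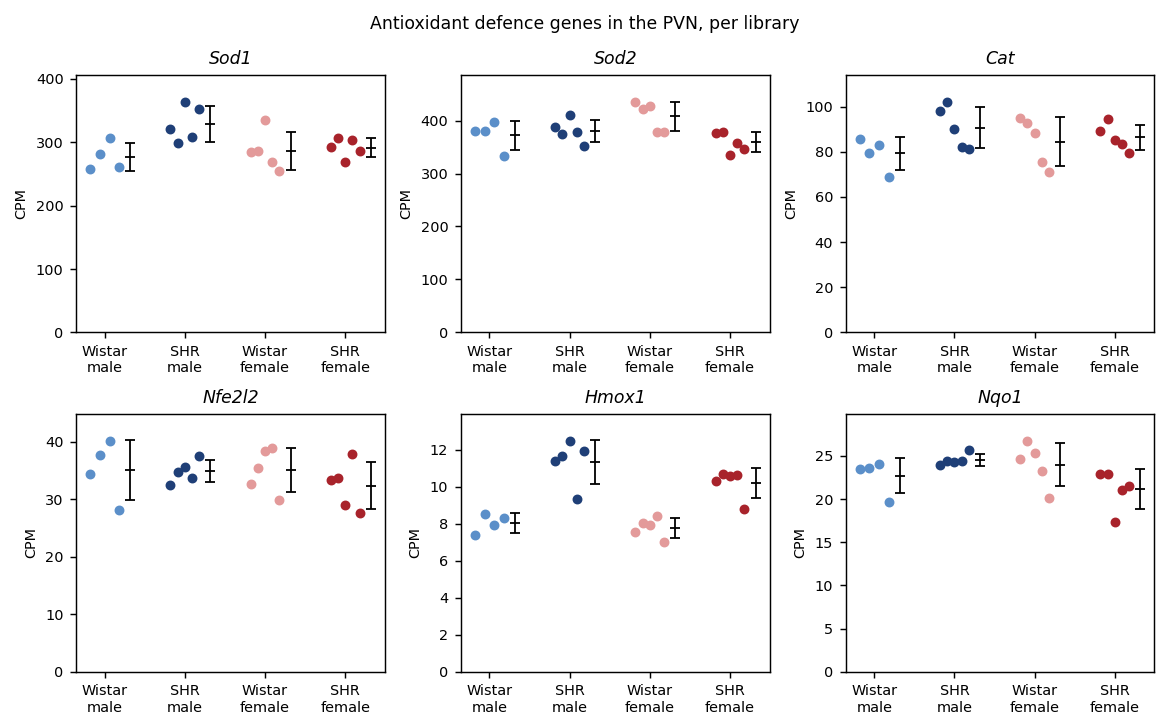
CPM of each of the 6 genes in every library, 1 panel a gene, with the 4 groups on the horizontal axis, points for libraries and bars for mean ± SD. The Hmox1 points of the SHR groups (8.77 to 12.4 CPM) all lie above those of the Wistar groups (7.0 to 8.55 CPM), while in the other panels the strains overlap in both sexes.

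Promoter windows are shown because the members are commonly grouped by control through Nrf2. Whole windows are given for Sod1, Sod2 and Cat, the members called for strain or for the replicate number that had an entry, and a short stretch is given for Nfe2l2 because it holds a match. They are RefSeq windows from 250 bases before to 50 bases after the annotated start in the build GRCr8. They are written 5′ to 3′ along the sense strand, the one that reads like the RNA. Of the 6 members, 5 had an entry, and Hmox1 is named only. Capitals mark the letters TGACNNNGC, the core of the antioxidant response element searched on both strands, or TATAAA, searched on the sense strand.
Sod1, chr11:42942573-42942872, plus strand: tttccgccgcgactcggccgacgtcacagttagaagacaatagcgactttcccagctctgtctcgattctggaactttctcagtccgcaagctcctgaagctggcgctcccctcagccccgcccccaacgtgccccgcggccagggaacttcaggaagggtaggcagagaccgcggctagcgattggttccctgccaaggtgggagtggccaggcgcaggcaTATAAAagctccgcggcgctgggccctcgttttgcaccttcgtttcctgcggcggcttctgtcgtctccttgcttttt
Sod2, chr1:50050119-50050418, minus strand: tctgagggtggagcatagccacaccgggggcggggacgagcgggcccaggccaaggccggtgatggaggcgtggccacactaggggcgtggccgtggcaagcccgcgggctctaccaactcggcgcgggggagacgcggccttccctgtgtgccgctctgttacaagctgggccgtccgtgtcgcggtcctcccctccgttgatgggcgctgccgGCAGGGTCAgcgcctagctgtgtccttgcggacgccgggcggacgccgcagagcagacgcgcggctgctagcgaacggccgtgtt
Cat, chr3:110329477-110329776, minus strand: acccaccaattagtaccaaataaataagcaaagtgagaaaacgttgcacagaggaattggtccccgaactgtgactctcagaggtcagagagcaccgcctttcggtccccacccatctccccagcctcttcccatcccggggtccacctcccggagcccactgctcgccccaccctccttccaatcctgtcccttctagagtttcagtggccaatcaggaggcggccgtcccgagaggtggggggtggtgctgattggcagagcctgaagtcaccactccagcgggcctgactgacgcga
Nfe2l2, chr3:81028950-81028978, minus strand, the last 29 bases of its window: ctgctccgactagccatTGACGCCGCctc
TATAAA began 28 bases before the start in Sod1. In Sod2 the core matched on the opposite strand, with its first base 35 bases before the start, and in Nfe2l2 it matched on the sense strand from base 39 after the start. Neither set of letters was in the Cat window. Nqo1 held TATAAA 59 bases before its start and no match to the core. For comparison, TGACNNNGC was present in 12.1% and TATAAA in 8.80% of the 33469 windows of this length. The GC content was 61.3% in Sod1, 72% in Sod2 and 59.3% in Cat, against a median of 51.7% over all windows. A match describes the letters in a window and is not evidence of a bound site. Sequence outside the windows was not searched, so a missing match does not show that a gene lacks the element.

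Sod1 was compared first between strains in males. In Wistar males its level was 257, 282, 307 and 261 CPM in replicates 2 to 5, with a mean of 277 ± 22.8 CPM (SD, n = 4). In SHR males it was 321, 299, 363, 309 and 352 CPM in replicates 1 to 5, with a mean of 329 ± 27.7 CPM (SD, n = 5). The groups overlapped by a single SHR library, replicate 2, which lay below the highest Wistar male. The log2 fold change was 0.25 (SE 0.07, 95% interval 0.09 to 0.41), with an adjusted p of 0.0436 (quasi-likelihood test of edgeR, Benjamini-Hochberg). The call did not stand in 7 of the 9 fits that left out 1 male library, where the adjusted p ran from 0.0508 to 0.0958, and stood without SHR male replicate 2 (0.0300) or Wistar male replicate 4 (0.0275). The call was also lost with library totals in place of TMM (log2 fold change 0.19, adjusted p = 0.108), with the replicate number as a block (0.26, 0.0535), with all 4 groups in 1 fit (0.25, 0.0524) and without both libraries numbered 5 (0.20, 0.132), all in edgeR. DESeq2 kept it (adjusted p = 0.0113).

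In females Sod1 did not separate the strains. Levels were 285, 287, 335, 269 and 255 CPM in Wistar females (286 ± 30.4 CPM, SD, n = 5) and 293, 307, 269, 303 and 286 CPM in SHR females (292 ± 15.1 CPM, SD, n = 5). Every SHR female lay within the range of the Wistar females. This gave a log2 fold change of 0.02 (95% interval -0.15 to 0.19; adjusted p = 0.927, edgeR).

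Sod2 showed no strain difference in males and a lower mean in SHR females that did not pass the test. In males the level was 380, 380, 396 and 333 CPM in Wistar rats and 387, 375, 411, 378 and 352 CPM in SHR, with means of 372 ± 27.4 CPM (SD, n = 4) and 381 ± 21.3 CPM (SD, n = 5). That made a log2 fold change of 0.03 (95% interval -0.10 to 0.17; adjusted p = 0.770, edgeR), and it was -0.02 on library totals. In females the level was 435, 422, 428, 379 and 378 CPM in Wistar rats and 377, 378, 336, 358 and 346 CPM in SHR. The lowest 2 Wistar females and the highest 2 SHR females were almost level, and the other SHR females lay below all Wistar females. The log2 fold change was -0.20 (SE 0.07, 95% interval -0.34 to -0.05), with an adjusted p of 0.152 in edgeR. On library totals all SHR females (333 to 379 CPM) lay below all Wistar females (388 to 418 CPM), a separation found in 3.18% of genes on that scale. With the replicate number as a linear covariate Sod2 passed the threshold in females (adjusted p = 0.0388, edgeR).

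Cat, the peroxisomal enzyme, had a higher mean in SHR males. Its level was 85.6, 79.3, 83.0 and 69.0 CPM in Wistar males (79.2 ± 7.32 CPM, SD, n = 4) and 98.1, 102, 90.0, 82.2 and 81.3 CPM in SHR males (90.7 ± 9.24 CPM, SD, n = 5). SHR male replicates 1, 2 and 3 lay above every Wistar male, and replicates 4 and 5 lay among them. SHR against Wistar males gave a log2 fold change of 0.20 (SE 0.08, 95% interval 0.02 to 0.37), which did not pass the test (adjusted p = 0.140, edgeR). In females the level was 95.1, 92.6, 88.2, 75.6 and 71.0 CPM in Wistar rats and 89.3, 94.3, 85.3, 83.4 and 79.5 CPM in SHR. The SHR females all lay inside the wide range of the Wistar females, with a log2 fold change of 0.02 (95% interval -0.17 to 0.22; adjusted p = 0.924, edgeR).

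Nfe2l2, the transcript of Nrf2, had nearly equal means in both strains of males. Its level was 34.5, 37.8, 40.0 and 28.1 CPM in Wistar males (35.1 ± 5.18 CPM, SD, n = 4) and 32.5, 34.8, 35.6, 33.7 and 37.6 CPM in SHR males (34.9 ± 1.93 CPM, SD, n = 5). All SHR males lay inside the range of the Wistar males, whose coefficient of variation was 14.7% against 5.53% in SHR males. Their log2 fold change was -0.01 (95% interval -0.21 to 0.19; adjusted p = 0.954, edgeR). In females it was -0.12 (95% interval -0.35 to 0.10; adjusted p = 0.567, edgeR), from 35.0 ± 3.82 CPM in Wistar rats and 32.3 ± 4.10 CPM in SHR (SD, n = 5 each). The coefficient of variation in females had the other order, 10.9% in Wistar rats and 12.7% in SHR. The log2 fold changes of Hmox1 were 0.50 in males and 0.38 in females, and whether the level of Nfe2l2 bears on them was not tested.

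Hmox1, a target of Nrf2, was higher in SHR males, and its higher mean in SHR females did not pass the test. In males the level was 7.37, 8.55, 7.91 and 8.34 CPM in Wistar rats (8.04 ± 0.520 CPM, SD, n = 4) and 11.4, 11.7, 12.4, 9.32 and 11.9 CPM in SHR (11.3 ± 1.20 CPM, SD, n = 5). All 5 SHR males lay above all 4 Wistar males, a separation seen in 6.92% of genes. The log2 fold change was 0.50 (SE 0.10, 95% interval 0.28 to 0.71), with an adjusted p of 0.00831 (quasi-likelihood test of edgeR, Benjamini-Hochberg). With each male library left out in turn the log2 fold change stayed between 0.46 and 0.56 and the adjusted p between 0.00400 and 0.0249. Without both libraries numbered 5 they were 0.50 and 0.0238.

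In females Hmox1 was 7.54, 8.04, 7.95, 8.42 and 7.0 CPM in Wistar rats (7.79 ± 0.542 CPM, SD, n = 5) and 10.3, 10.7, 10.6, 10.6 and 8.77 CPM in SHR (10.2 ± 0.806 CPM, SD, n = 5). All SHR females lay above all Wistar females, which held for 2.26% of genes, and SHR female replicate 5 lay nearest to the Wistar range. The log2 fold change was 0.38 (SE 0.09, 95% interval 0.18 to 0.58), and the adjusted p of 0.0584 in edgeR missed the threshold. It was 0.0407 without SHR female replicate 5, up to 0.141 with another female library left out, and 0.00237 in DESeq2. Without both libraries numbered 5 it was 0.0493, with a log2 fold change of 0.40. Over both sexes the log2 fold change was 0.44 (SE 0.06, 95% interval 0.31 to 0.58; adjusted p = 0.000100, edgeR), the 199th smallest p among 17432 genes. All 10 SHR libraries lay above all 9 Wistar libraries in 0.688% of genes and below them in 0.889%. For Hmox1 this separation was also present on library totals, where the highest Wistar library had 8.98 CPM and the lowest SHR library 9.12 CPM. By size the change was less exceptional, since 12.6% of genes had a larger log2 change over both sexes.

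Nqo1, the other target, was not called in either sex. In males the level was 23.5, 23.6, 24.1 and 19.7 CPM in Wistar rats (22.7 ± 2.03 CPM, SD, n = 4) and 23.9, 24.4, 24.3, 24.4 and 25.7 CPM in SHR (24.5 ± 0.691 CPM, SD, n = 5). The SHR males were tightly grouped, and 4 of the 5 lay above every Wistar male, against 2 of the 5 on library totals. Their log2 fold change was 0.11 (95% interval -0.04 to 0.26; adjusted p = 0.305, edgeR). In females the level was 24.6, 26.7, 25.3, 23.3 and 20.1 CPM in Wistar rats and 22.9, 22.9, 17.3, 21.1 and 21.6 CPM in SHR, with a log2 fold change of -0.19 (95% interval -0.41 to 0.03; adjusted p = 0.355, edgeR). No SHR female lay above the Wistar range, and replicate 3 lay below it.

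**Figure D2:**
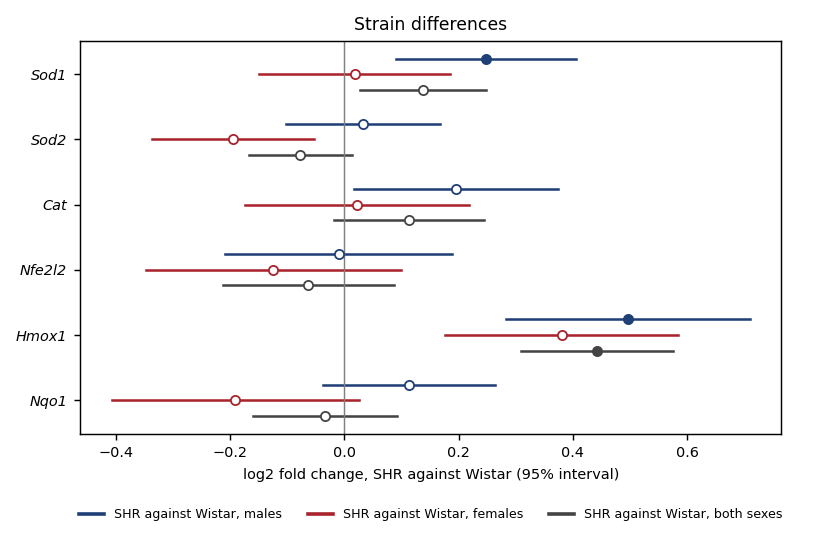
Log2 fold change of SHR against Wistar rats for each gene in males, females and both sexes, with 95% intervals. Filled points have an adjusted p below 0.05 by edgeR: Sod1 in males (0.25), and Hmox1 in males (0.50) and over both sexes (0.44).

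Across the list, 2 of 6 members were called between the strains in males, both higher in SHR, where 5.14% of the 17461 genes tested were called higher, and 0 of 6 in females, where 2.32% of 17404 were called. The count in females at an unadjusted p under 0.05 was 2 of 6, Sod2 and Hmox1, beside 2964 of the 17404 genes, and DESeq2 called 1, Hmox1, beside 1095 genes in all. Over both sexes 1 of 6 was called, beside 15.1% of 17432 genes called in either direction and 6.86% called higher in SHR. The median over the members was 0.15 for males and -0.05 for females on the log2 scale, while that of all genes tested was -0.00 in both. Over both sexes Sod1 had a log2 fold change of 0.14 (95% interval 0.03 to 0.25; adjusted p = 0.0883, edgeR), which passed the threshold without Wistar female replicate 3 (0.0227). The remaining members had log2 fold changes between -0.08 and 0.11 over both sexes.

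The sexes were compared within each strain. In Wistar rats the log2 fold changes of females against males ran from -0.04 for Hmox1 to 0.14 for Sod2, and 0 of 6 were called by edgeR, beside 0.0629% of 17490 genes. DESeq2 also called 0 of 6, beside 20 genes in all, and 0 of 6 had an unadjusted p under 0.05 in edgeR, beside 4.08% of genes. In SHR all 6 members had lower means in females, with log2 fold changes from -0.21 for Nqo1 to -0.07 for Cat and a median of -0.13, against 0.01 for all genes. None passed the test in SHR by edgeR or DESeq2, where 0.0694% of 17285 genes were called by edgeR and 299 genes by DESeq2, and 2, Sod1 and Nqo1, had an unadjusted p under 0.05, beside 14.9% of all genes. Nqo1 lay lower in each of the 5 SHR females (17.3 to 22.9 CPM) than in any SHR male (23.9 to 25.7 CPM), as 1.55% of genes did, with a log2 fold change of -0.21 (95% interval -0.37 to -0.05; adjusted p = 0.230, edgeR). For Sod1 the log2 fold change was -0.17 (95% interval -0.30 to -0.05; adjusted p = 0.226, edgeR), and SHR female replicates 2 and 4 lay within the range of the SHR males.

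**Figure D3:**
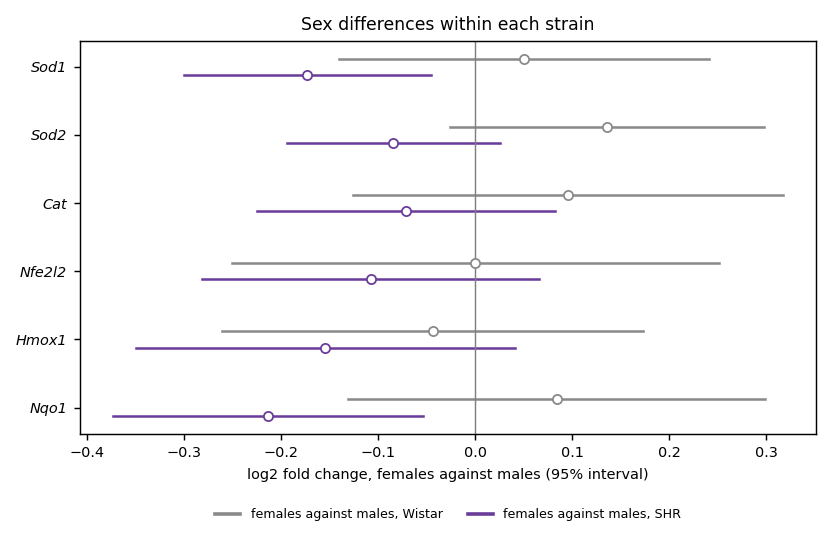
Log2 fold change of females against males for each gene in Wistar rats and in SHR, with 95% intervals. All 6 SHR points lie below 0, from -0.21 to -0.07, and none of the 12 points has an adjusted p below 0.05.

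Whether the strain difference itself differed between the sexes was tested as an interaction. The female strain difference was lower than the male one for all 6 members (for 5 without the libraries numbered 5, where Nfe2l2 was at 0.0086), with log2 differences from -0.29 for Nqo1 to -0.11 for Nfe2l2 and a median of -0.19, against 0.00 for all genes. None of the 6 passed the test by edgeR or DESeq2, and edgeR called 0 of 17432 genes in all, while DESeq2 called 36. At an unadjusted p under 0.05 there were 2 members, Sod2 and Nqo1, beside 13.4% of all genes. The difference was -0.29 for Nqo1 (95% interval -0.55 to -0.04; adjusted p = 0.334, edgeR) and -0.22 for Sod2 (-0.40 to -0.04; 0.324). For Sod1, which passed the threshold in males alone, it was -0.22 (-0.44 to 0.00; 0.374), so a difference between the sexes was not shown. For Hmox1 it was -0.11 (-0.37 to 0.16; 0.703). The strain and sex comparisons share libraries, so the negative signs in SHR females and in the interaction are not separate observations.

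The replicate numbers in the labels, whose meaning no source used here gives, moved with the levels of some members. They were examined because earlier results of these same data had tied them to variation within the groups. Calls for the number are therefore not independent of that choice. A linear term for the number, added to the 4 group means, was -0.08 for Cat on the log2 scale per step (SE 0.01, 95% interval -0.11 to -0.06; adjusted p = 0.000988, edgeR) and -0.04 for Sod2 (SE 0.01, 95% interval -0.07 to -0.01; adjusted p = 0.0397, edgeR). Thus 2 of 6 members were called, beside 15.3% of all genes called in either direction and 6.23% called with a negative term. Cat was lowest in replicate 5 of every group. Without the 4 libraries numbered 5 the term was -0.07 for Cat (adjusted p = 0.0576, edgeR) and -0.02 for Sod2 (0.534), and 334 of 17358 genes were called for the number, against 2661 of 17432 with all libraries. Libraries numbered 5 also shared deviations over all genes: the correlation of their deviations from the group means was over 0.1 in 5 of 6 pairs (0.065 to 0.355), while of the remaining pairs that share a number only 1 was over 0.1. For Nqo1, Hmox1, Nfe2l2 and Sod1 the term was -0.03, -0.02, -0.01 and -0.00, with adjusted p from 0.292 to 0.955. On library totals the term for Cat was -0.06 (adjusted p = 0.00216, edgeR) and that for Sod2 was -0.01 (0.429). With the number as a covariate the strain difference of Cat in males was 0.15 (adjusted p = 0.102, edgeR).

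**Figure D4:**
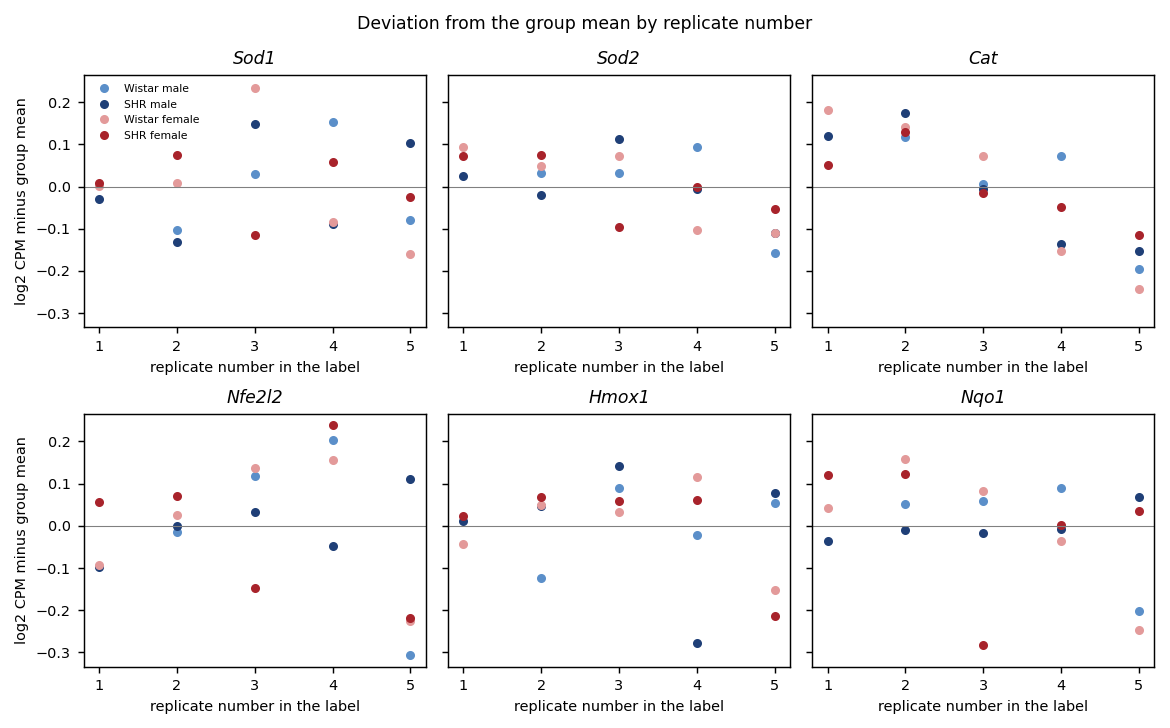
Log2 CPM minus the group mean for each gene, 1 panel a gene, against the replicate number in the labels, with points coloured by group. Cat has its lowest value in replicate 5 in each of the 4 groups (slope -0.08 per step), whereas Sod1 shows no slope (-0.00).

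Members were also compared with each other between animals of the same group, after the group means had been subtracted from log2 CPM in the 19 libraries. For Hmox1 the coefficient of variation within groups was 6.46% to 10.6%, against a counting error of 5.46% at its lowest count. How far that error lowers the r of Hmox1 with the other members was not tested. Of 15 pairs, 7 had a Pearson correlation and 3 a Spearman correlation with an adjusted p below 0.05 by permutation within groups. The 7 pairs had r of at least 0.55, which 5.47% of all pairs of genes above the filter reached. The largest was between Sod2 and Cat (Pearson's r = 0.76, permutation p = 0.00214, adjusted p = 0.0296; Spearman's rho = 0.698, permutation p = 0.00424, adjusted p = 0.0212), and r was 0.68 without the 2 libraries farthest from the median of Sod2. Sod2 and Nqo1 followed (r = 0.69, permutation p = 0.00395, adjusted p = 0.0296; rho = 0.582, permutation p = 0.0148, adjusted p = 0.0555; 0.73 without 2 libraries). Sod1 and Nfe2l2 passed by both measures, as Sod2 and Cat did (r = 0.62, permutation p = 0.00769, adjusted p = 0.0384, rho = 0.670, permutation p = 0.00370, adjusted p = 0.0212, and r = 0.54 without 2 libraries). So did Sod1 and Nqo1 (r = 0.59, permutation p = 0.0143, adjusted p = 0.0466, rho = 0.647, permutation p = 0.00391, adjusted p = 0.0212, and r = 0.50 without 2 libraries). The targets Hmox1 and Nqo1 did not vary together by this measure (r = 0.08, permutation p = 0.743, adjusted p = 0.743; rho = 0.00877, permutation p = 0.975, adjusted p = 0.975; r = 0.16 without 2 libraries). Nfe2l2 had r = 0.63 with Nqo1 (permutation p = 0.0217, adjusted p = 0.0466; rho = 0.546, permutation p = 0.0363, adjusted p = 0.0843; 0.39 without 2 libraries). With Hmox1, Nfe2l2 had r = 0.45 (permutation p = 0.0469, adjusted p = 0.0879; rho = 0.496, permutation p = 0.0394, adjusted p = 0.0843; 0.52 without 2 libraries).

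These relations moved with the scaling. On library totals 0 of the 15 pairs passed by either measure, and r was 0.42 for Sod2 and Cat, 0.59 for Sod2 and Nqo1, and 0.56 for Nfe2l2 and Nqo1. For Sod1 it was 0.55 with Nfe2l2 and 0.51 with Nqo1. On that scale 3 of the 15 pairs had r of at least 0.55, which 8.48% of all pairs of genes reached. On the TMM scale, with the replicate number removed as well as the group means, r was 0.47 for Sod2 and Cat, 0.76 for Sod1 and Sod2, and 0.63 for Nfe2l2 and Nqo1. Without the 4 libraries numbered 5, no pair passed by either measure, and r was 0.52 for Sod2 and Cat, 0.71 for Sod2 and Nqo1 and 0.41 for Nfe2l2 and Nqo1. In these libraries r was highest for Sod1 and Sod2 (0.73), and Sod1 had 0.54 with Nfe2l2 and 0.43 with Nqo1. By Pearson's r no pair passed without Wistar female replicate 5 alone or without Wistar male replicate 5 alone, the libraries with scaling factors of 1.06 and 1.08, and by Spearman's rho 0 and 2 pairs passed. Each group holds at most 5 libraries, too few for a value within a group.

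**Figure D5:**
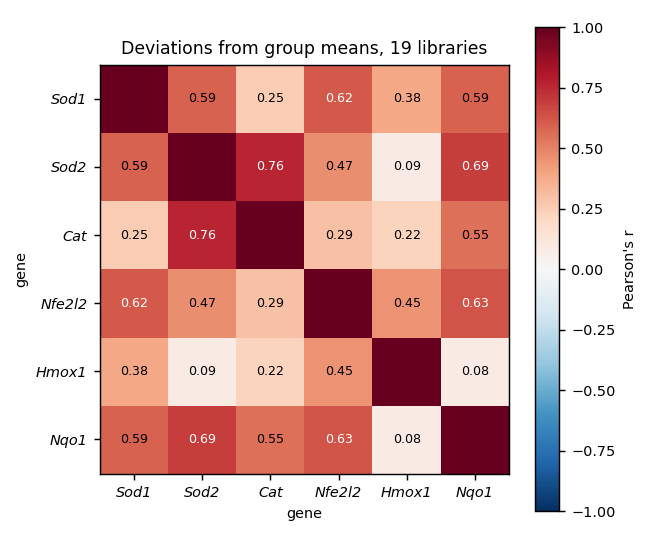
Pearson's r between each pair of the 6 genes over 19 libraries after subtraction of the group means, with colour and number giving r. Sod2 and Cat have the highest r (0.76), and Hmox1 and Nqo1 one near 0 (0.08).

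Over the 19 libraries with the group means kept, the genes whose pattern was most like each member reached r from 0.89 for Nfe2l2 to 0.94 for Sod1, and these genes have no symbol here. None of the nearest genes was another member. Among 17431 other genes ranked by r with Nqo1, Sod2 stood at rank 372 (r = 0.71), Nfe2l2 at rank 765 (r = 0.65) and Hmox1 at rank 8053 (r = 0.02). For Hmox1 the member with the highest r was Sod1, at rank 739 (r = 0.64). These values are descriptions over libraries that share strain, sex and scaling.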

How the data were processed

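Poly(A) RNA of PVN punches was sequenced in 19 strand-specific paired-end libraries. The authors trimmed with Trimmomatic (Phred threshold 30), aligned with STAR to Rn7 and counted by gene using featureCounts, and the deposited values are raw counts. The counting settings and annotation release are not given in the sources used here. Of counts from 1 to 100, 73.9% were even. If both reads of a pair were counted, the counting error is larger.

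Genes with a mean above 5 median-of-ratios normalized counts over the libraries compared were tested with edgeR 4.0.16 (quasi-likelihood, TMM) in R 4.3.3, with Benjamini-Hochberg adjustment over all genes and a threshold of 0.05. Pairwise fits held the groups compared, and the average over sexes, the interaction and the number term used all 4 groups. The alternatives were DESeq2 1.42.0, Bonferroni adjustment, DESeq2 size factors, other filters, the replicate number as block or covariate, all groups in 1 fit and each library left out. Library totals in place of TMM, and leaving out the libraries numbered 5, were added after seeing the data. Correlations used 100000 permutations within groups (20000 with a library left out), with scipy 1.17.1. The strain fits were also run on simulated data that held no effect of the replicate number, and the outcome is not used here.

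The labels name rats by strain, sex and number, so each library was taken as 1 animal. All 6 members were named whatever their values, and whole promoters were printed for members called for strain or number. The members, the lists and the number term were chosen with earlier results of these data known. Lists for glutathione, thioredoxin and related genes, cell type markers (the check of the PVN label included) and the likest genes need symbols. The reference table paired 0 Ensembl identifiers with symbols, so they were not analysed here. Gene coordinates on Rn7 were not used here.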

Additional observations from a re-analysis of the deposited data

Results flagged for a closer look

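Of 24 sets of values (6 genes in 4 groups), 3 held a library far from the rest of its group by Dixon's test at the 95% level, where chance gives about 1 in 20, or 1.2 of 24. Hmox1 was lowest in SHR female replicate 5 at 8.77 CPM, with the nearest library at 10.3 CPM, a gap of 0.823 of the group's range. Nqo1 was lowest in Wistar male replicate 5 at 19.7 CPM, with the nearest at 23.5 CPM and a gap of 0.862 of the range. Nqo1 was highest in SHR male replicate 5 at 25.7 CPM, with the nearest at 24.4 CPM and a gap of 0.722 of the range. All 3 are replicates numbered 5, the number whose libraries also shared deviations over all genes, and what that number stands for is not given in the sources used here.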

How the results depend on the processing

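Members called in males (2, Sod1 and Hmox1, of 2102 genes in all) became 0 with Bonferroni adjustment (of 87) and 1, Hmox1, with library totals (of 1985), the replicate block (of 1916), all 4 groups in 1 fit (of 1465) or both libraries numbered 5 left out (of 1399), the last added after seeing the data. In females (0 of 403 genes) there was 1, Hmox1, with DESeq2 (of 1095), library totals (of 361), filterByExpr (of 405), all 4 groups (of 1104) or libraries numbered 5 left out (of 336), and 2, Sod2 and Hmox1, with the number as a linear covariate (of 835). With a library left out the count was 1 to 2 in males, 0 to 1 in females and 1 to 2 over both sexes. Over both sexes Hmox1 also passed with Bonferroni adjustment in edgeR (adjusted p = 0.0200). Sex and interaction counts were 0 under every alternative run. Members called for the number term (2) became 1, Cat, on library totals and 0 without the libraries numbered 5, and were 1 to 2 with a library left out. Sod2 lost that call in 10 of 19 such fits (adjusted p up to 0.0986, without Wistar female replicate 5), and Cat in 0. Related pairs by Pearson's r (7) became 3 on log2 normalized counts and 0 on library totals or without the libraries numbered 5, and ran from 0 to 7 with a library left out. Causes of these changes were not tested.

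The adjusted p of Sod1 in males was 0.0113 in DESeq2, 0.0535 with the replicate block (log2 fold change 0.26) and 0.0524 with all 4 groups, and the block changed no other call. Over the 27 pairs of libraries with the same number, deviations from the group means correlated from -0.186 to 0.355 and were over 0.1 in 6, of which 5 were pairs numbered 5, so not every pair did. Of 19 libraries, 6 correlated best with their own number. The block is therefore given as an alternative.

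Changes of sign arose near 0. In males Sod2 was -0.025 on library totals and Nfe2l2 0.024 with the replicate block. Between Wistar sexes Nfe2l2 was 0.0016 in DESeq2, 0.0015 with its size factors, 0.00019 without a filter and 0.027 with the block. The number term on library totals was 0.023 for Sod1, 0.013 for Nfe2l2 and 0.0093 for Hmox1. Without the libraries numbered 5, Sod1 was -0.0064 in females, Hmox1 0.0081 between Wistar sexes and Nfe2l2 0.0086 in the interaction, and the number term was 0.018 for Sod1, 0.054 for Nfe2l2 and 0.0015 for Hmox1. With a library left out, ranges across 0 were -0.013 to 0.063 (Sod2) and -0.10 to 0.059 (Nfe2l2) in males, -0.011 to 0.084 (Sod1) and -0.025 to 0.071 (Cat) in females, -0.012 to 0.10 (Sod1) and -0.092 to 0.070 (Nfe2l2) between Wistar sexes, and -0.011 to 0.0097 (Sod1) and -0.024 to 0.0036 (Nfe2l2) for the number term. Counting error was largest for Hmox1 among the 6 members, and precision is limited by 4 or 5 animals a group.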
